A study of Mus musculus with 6 samples.

Results

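The miR-106b to miR-25 and miR-106a to miR-363 clusters are paralogs of the growth-promoting miR-17 to miR-92a cluster, and their miRNAs were read here in lungs of newborn mice breathing 95% oxygen. Members were chosen by name: miR-106b, miR-93 and miR-25 of the first cluster, and miR-106a, miR-18b, miR-20b and miR-363 of the second. With mouse, rat and human names pooled, these 7 miRNAs (on the first card mmu-miR-106b, mmu-miR-93, mmu-miR-25, mmu-miR-106a, mmu-miR-18b, mmu-miR-20b and mmu-miR-363) were read by 9 of the 750 miRNA assays. The first card of the assay set held 8 of them and the second card 1. One of the 9, rno-miR-20b-3p, is named for the other strand of its hairpin and falls under the rule because arm endings were dropped.

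MicroRNA was measured by RT-PCR in whole right lung on postnatal day 7, after perfusion with saline, in 3 samples from room air and 3 from hyperoxia. Pups entered either condition before 12 hours of age and stayed there for 7 days (168 h), and dams rotated between conditions daily. The labels name neither a strain nor a sex, and no transgene or deletion. They also do not say that each sample is a separate pup or litter, so the p-values speak of sample-to-sample spread, part of which may be technical.

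A miRNA pairs with its targets mainly through its seed, bases 2 to 8 of the mature strand, and lowers the stability and translation of the messages it binds. The miR-106b to miR-25 hairpins lie in an intron of Mcm7, a subunit of the helicase that opens DNA for replication, and are transcribed with it in dividing cells under E2F and MYC factors. miR-17 seed miRNAs repress the cell cycle inhibitor Cdkn1a (p21), the death factor Bcl2l11 (Bim) and the receptor Tgfbr2. In mice, loss of the miR-17 to miR-92a cluster leaves the lungs underdeveloped, and losing miR-106b to miR-25 as well is lethal before birth, whereas the miR-106a to miR-363 cluster can be lost without such a defect.

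The mature sequences show which members can share targets and which assays read nearly the same molecule. All 7 members were found in RefSeq (GRCm38.p6). They are printed 5′ to 3′ with the seed in capitals, followed by 4 miRNAs of the miR-17 to miR-92a cluster with the same seeds.
miR-106b: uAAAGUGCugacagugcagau
miR-93: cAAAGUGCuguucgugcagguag
miR-106a: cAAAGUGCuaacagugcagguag
miR-20b: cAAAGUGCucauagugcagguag
miR-25: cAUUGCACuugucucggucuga
miR-363: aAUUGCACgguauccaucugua
miR-18b: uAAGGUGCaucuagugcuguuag
miR-17: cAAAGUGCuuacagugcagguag
miR-20a: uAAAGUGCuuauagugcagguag
miR-92a: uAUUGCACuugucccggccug
miR-18a: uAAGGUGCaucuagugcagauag

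These members fall into 3 seed groups: miR-106b, miR-93, miR-106a and miR-20b share AAAGUGC with miR-17 and miR-20a, miR-25 and miR-363 share AUUGCAC with miR-92a, and miR-18b shares AAGGUGC with miR-18a. Outside the seed the members differ by degrees. Counting positions from 1 at the 5′ end, miR-106a differs from miR-17 by the single substitution A10U and from miR-20b by A10C and C12U. Over 21 shared positions miR-106b differs from miR-106a by U1C, G10A and A20G, and miR-25 from miR-92a by C1U, U14C and U18C. miR-25 and miR-363 match at only 9 of 22 positions.

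In GRCm38.p6 the hairpins of miR-106b, miR-93 and miR-25 lie at chr5:138165321-138165818 on the minus strand, within the span of Mcm7, over 498 bases. The 4 hairpins of the other cluster lie at chrX:52741693-52742567 on the minus strand, over 875 bases, and in no longer gene of the RefSeq table. That stretch also holds the hairpins of miR-19b-2 and miR-92a-2.

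The promoter of the Mcm7 transcript that starts furthest upstream is shown because the miR-106b to miR-25 hairpins are transcribed from this gene. The window of 300 bases around the start lies at chr5:138171834-138172133 (GRCm38.p6, minus strand) and is printed with E2F motif letters in capitals.
Mcm7: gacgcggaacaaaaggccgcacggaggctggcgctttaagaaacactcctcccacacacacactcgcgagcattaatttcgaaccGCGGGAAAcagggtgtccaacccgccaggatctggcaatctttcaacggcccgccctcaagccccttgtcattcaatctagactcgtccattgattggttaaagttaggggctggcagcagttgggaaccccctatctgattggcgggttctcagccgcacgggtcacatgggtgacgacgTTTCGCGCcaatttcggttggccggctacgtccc

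The letters searched on both strands were TTTCCCGC, TTTCGCGC, TTTGCCGC and TTTGGCGC, and this window held 2 matches that do not overlap. At least 1 match was present in 744 (2.26%) of 32851 promoter windows of this length. The MYC letters CACGTG, present in 7.15% of the windows, were not found here. The other Mcm7 window in the table, and that of the noncoding RNA gene Kis2 near miR-106a, held neither. A match is a stretch of letters, and neither Mcm7 nor Kis2 RNA was measured.

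Levels are first given as the threshold cycle (Ct), the point in the PCR where fluorescence passes a preset level, so that a later Ct means less RNA and 1 cycle is a fold of 2 at full efficiency. Wells with no amplification carry a Ct of 40, and a Ct under 35 was taken as detected. Of the 8 first-card member assays, 6 were detected in all 6 samples and 2 in none, and the second-card assay was detected in every sample kept for it. Across all miRNAs the first card detected 307 to 319 assays per sample and the second 268 to 293. The endothelial miR-126-3p and miR-126-5p, 7 epithelial markers on the first card and the smooth muscle miR-143 and miR-145 were detected in all 6 samples. So were the liver miR-122 and the neural miR-9 and miR-7b, so detection alone does not mark lung. The mesenchymal miR-199a-5p was undetected in hyperoxia replicate 3. On the second card, 308 of 309 amplified values were identical between room air replicate 1 and hyperoxia replicate 2. Those values were left out of both samples, leaving 2 samples per group on that card.

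In room air lung, miR-106a had the earliest Ct of the members (15.76 ± 0.62, SD, n = 3), then miR-106b (18.31 ± 0.04), miR-20b (19.11 ± 0.43), miR-93 (19.24 ± 0.41), miR-25 (20.98 ± 0.29) and miR-363 (28.27 ± 0.10). The samples of miR-20b and miR-93 overlapped, while every other neighbouring pair in this order was separate. In hyperoxia miR-106a again had the earliest mean and miR-363 the latest. miR-363 stood apart, the neighbours from miR-106b to miR-25 overlapped, and 1 miR-25 well, that of replicate 2, was earlier than every miR-106a well. Assays differ in efficiency, so this is an order of Ct and not of molecule numbers. miR-18b and rno-miR-20b-3p had a Ct of 40 in all 6 samples. miR-18b differs from miR-18a by U18A and U20A, and miR-18a was read at 22.29 to 24.18.

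miR-93, which carries the miR-17 seed and represses Cdkn1a among other targets, showed the lowest log2 fold change of hyperoxia over room air among the members. Its Ct was 18.90, 19.13 and 19.69 in room air replicates 1, 2 and 3, and 21.15, 20.45 and 21.23 in hyperoxia replicates 1, 2 and 3. All 3 hyperoxia samples were later than all 3 room air samples, with replicate 2 the nearest. Set against the mean over 282 miRNAs detected throughout on that card, its log2 abundance was 3.13, 3.35 and 2.91 in room air, against 2.31, 2.17 and 2.08 in hyperoxia. On that scale too the groups did not overlap. The log2 fold change was -0.95 ± 0.24 (SE; 95% interval -1.54 to -0.35), which is 1.93-fold less in hyperoxia. It did not pass over all 551 assays tested (limma adjusted p = 0.333), and 12.2% of those assays had a lower value. In bulk lung, fewer cells of a type and less RNA per cell cannot be told apart.

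miR-106b, from the same intron and with the same seed, had Ct values of 18.29, 18.35 and 18.28 in room air, against 19.95, 18.89 and 19.69 in hyperoxia. The room air samples nearly coincided and every hyperoxia sample was later. Relative to the card mean it stood at 3.73, 4.13 and 4.32 in room air, against 3.52, 3.73 and 3.62 in hyperoxia. The groups were separate by a narrow margin there, between room air replicate 1 and hyperoxia replicate 2. Its log2 fold change was -0.44 ± 0.26 (95% interval -1.08 to 0.20; limma adjusted p = 0.689).

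**Figure D1:**
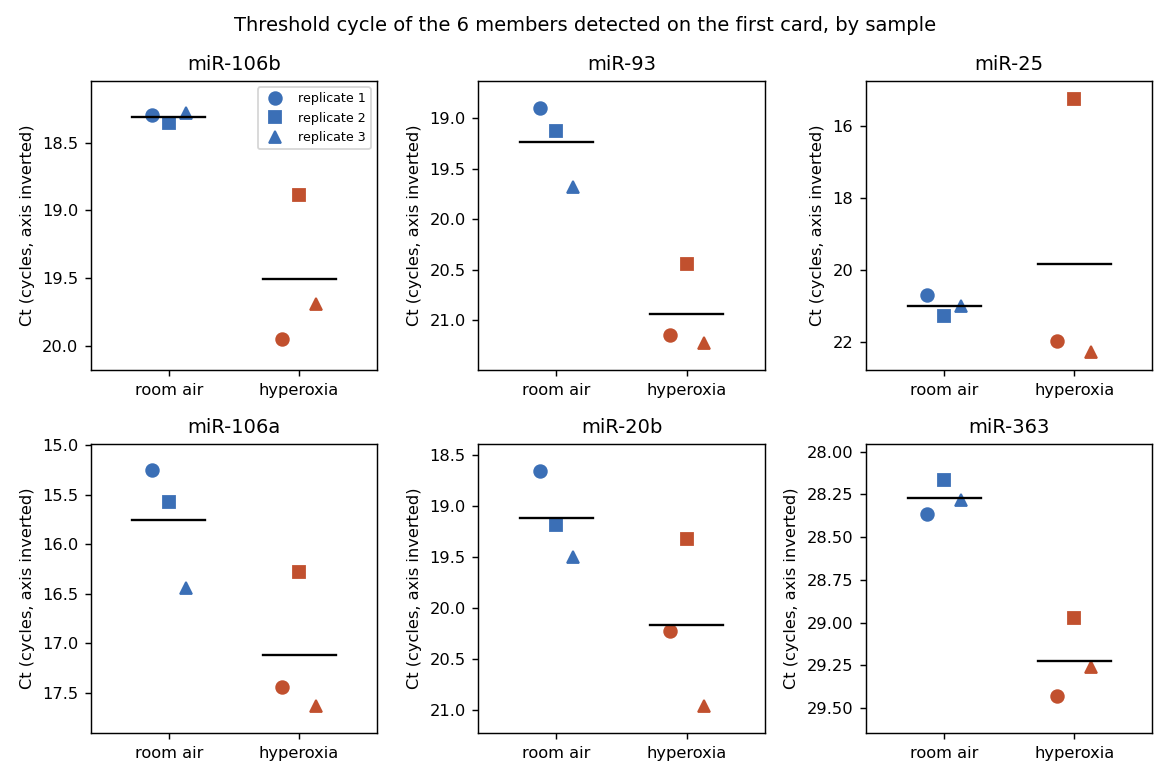
Threshold cycle (Ct, in cycles, on an inverted axis so that more RNA is higher) of the 6 members detected on the first card, with 1 symbol per sample, replicates marked by shape and the group mean as a line. Hyperoxia replicates 1 and 3 lie below all room air samples for all 6 members, and replicate 2 does so for 3 of them; for miR-25 replicate 2 stands at 15.24, far above the rest.

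miR-25, the third miRNA of the Mcm7 intron, carries the miR-92a seed and targets Bcl2l11 and the kinase Map2k4. It had Ct values of 20.69, 21.27 and 20.98 in room air, against 21.95, 15.24 and 22.27 in hyperoxia. A single sample, hyperoxia replicate 2, sat far earlier than the earliest room air sample, while the other two hyperoxia samples were later than every room air sample. Its log2 fold change of 1.92 ± 1.73 (95% interval -2.39 to 6.23; limma adjusted p = 0.754) thus rests on that well, and without hyperoxia replicate 2 it was -0.098 (adjusted p = 0.924). For the other first-card members, hyperoxia replicate 2 relative to the card mean was at 2.17 for miR-93, 3.73 for miR-106b, 6.34 for miR-106a, 3.29 for miR-20b and -6.36 for miR-363. It was the lowest of the hyperoxia samples for miR-363, the highest for miR-106b, miR-106a and miR-20b, and between the others for miR-93. What set the miR-25 well of that sample apart was not tested.

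miR-106a, the member with the earliest Ct, had values of 15.26, 15.57 and 16.45 in room air, against 17.44, 16.28 and 17.64 in hyperoxia. Room air replicate 3 and hyperoxia replicate 2 overlapped, and the rest were apart. Relative to the card mean it was at 6.77, 6.91 and 6.15 in room air, against 6.03, 6.34 and 5.67 in hyperoxia, a log2 fold change of -0.60 ± 0.33 (95% interval -1.41 to 0.21; limma adjusted p = 0.68). Its readings tracked those of miR-17, from which it differs by 1 base. The Ct of miR-106a minus that of miR-17 lay between -0.30 and 0.21 cycles in the 6 samples. Such tracking was not particular to this pair, as miR-20b minus miR-20a lay between 2.74 and 3.16 cycles. The range was wider for miR-106b minus miR-20a, at 1.89 to 2.78 cycles. Whether each assay reads its own miRNA alone was not tested.

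miR-20b, which shares the miR-17 seed, was read by mouse and rat assays. The mouse assay had Ct values of 18.65, 19.19 and 19.50 in room air, against 20.23, 19.32 and 20.96 in hyperoxia, and hyperoxia replicate 2 lay among the room air samples. Its log2 fold change was -0.30 ± 0.34 (95% interval -1.13 to 0.54; limma adjusted p = 0.802), and -0.023 without hyperoxia replicate 3. The rat assay on the second card, rno-miR-20b, had Ct values of 24.65 and 24.71 in room air replicates 2 and 3 and 25.16 and 25.37 in hyperoxia replicates 1 and 3. With 2 samples per group its log2 fold change was -0.40 ± 0.33 (95% interval -1.34 to 0.55; limma adjusted p = 0.754), but it turned to 0.26 with the first-card mean as reference. All 105 second-card names that carry an assay number match the number listed 3 wells later, so the identity of single second-card assays is uncertain. Read by number, rno-miR-20b was at 0.54.

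miR-363, at the end of its cluster and with the miR-92a seed, was near the late end of the card at 28.37, 28.17 and 28.29 in room air, against 29.43, 28.97 and 29.26 in hyperoxia. By Ct alone every hyperoxia sample was later. Relative to the card mean the groups overlapped, at -6.34, -5.68 and -5.69 against -5.96, -6.36 and -5.95, with a log2 fold change of -0.19 ± 0.30 (95% interval -0.93 to 0.55; limma adjusted p = 0.867). Without hyperoxia replicate 2 it was -0.042.

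Read together, 6 of the 7 member assays tested had a value below 0, with a median log2 fold change of -0.40. Over all 551 assays tested, 57.9% were below 0 and the median was -0.12. On the first card 5 of 6 members were below 0, against 58.9% of assays. Of the members 0 passed an adjusted p of 0.05 in limma, as did 0.0% of all assays, and 1 (miR-93) had an unadjusted p under 0.05 with a lower value, against 5.44% of all assays. Of the 6 first-card members, 2 (miR-93 and miR-106b) had groups that did not overlap on the relative scale, both lower in hyperoxia, where 16.2% of first-card assays did. On the second card rno-miR-20b had separate groups, with 16.9% of that card's assays separate and lower. The 2 assays that were not tested, miR-18b and rno-miR-20b-3p, were undetected in both groups.

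**Figure D2:**
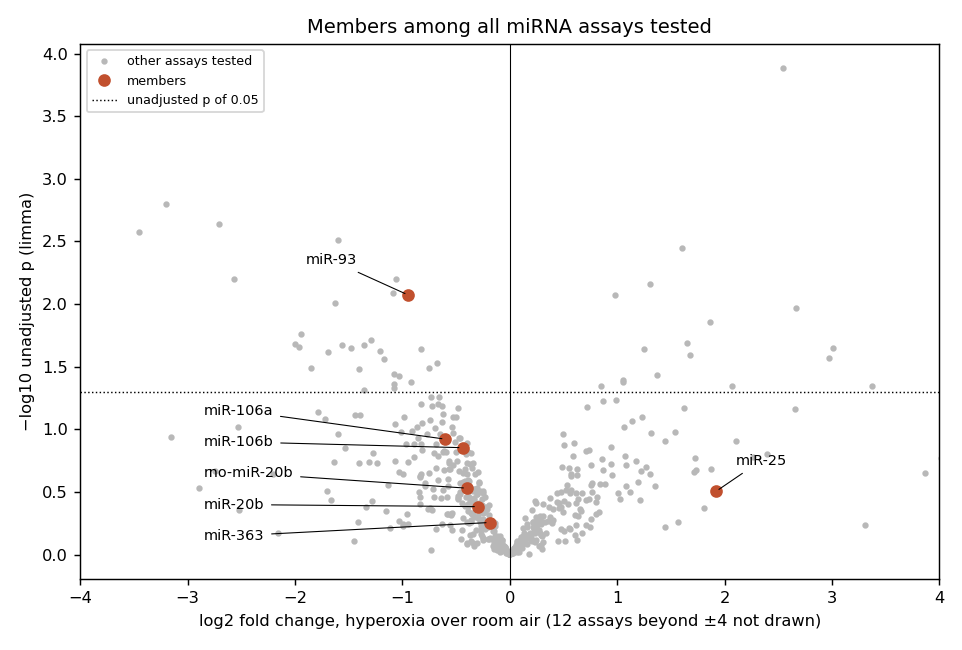
Log2 fold change of hyperoxia over room air (horizontal) against −log10 of the unadjusted limma p (vertical) for the miRNA assays tested, with the 7 tested members in colour and 12 assays beyond ±4 not drawn. miR-93 lies above the line of an unadjusted p of 0.05; the other members lie under it, miR-25 on the right and the rest on the left.

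The reference matters for the size of these values. The mean Ct of the 282 first-card miRNAs was 0.76 cycles later in hyperoxia (22.37 ± 0.30 against 23.13 ± 0.46, SD, n = 3; exact permutation p = 0.1, the smallest that 3 against 3 allows). By Ct alone, 3 of the 6 first-card members (miR-93, miR-106b and miR-363) were later in every hyperoxia sample, and 45.0% of first-card assays were too. Against the 5 control RNAs the members' median was -0.86 and that of all assays -0.62. With no normalization these were -1.06 and -0.62, and with median normalization -0.32 and 0.038. The members' median lay below that of all assays by 0.19 to 0.47 under the 6 other references tried, U6 giving the smallest gap. Apart from quantile normalization, a reference shifts all assays of a card in a sample alike. The gap could therefore change mainly through the mix of cards, and its persistence is no separate support. The control RNAs did not share one shift. The row A well of U6 came 0.43 cycles later in hyperoxia, the row B well 1.06 and Y1 0.41, while snoRNA202 differed by 0.038, snoRNA135 by -0.078 and U87 by -0.13 cycles (exact permutation p from 0.1 to 1.0, and from 0.6 to 1.0 after Benjamini-Hochberg adjustment over these 6 readings).

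miR-93 kept a negative value under all 26 alternatives, from -1.71 with no normalization to -0.83 without room air replicate 2, and its limma adjusted p ran from 0.173 to 0.994. Several of these alternatives could not move its fold change: those that alter only the second card, the variance settings of limma and the replicate block. Hyperoxia replicate 2 had the earliest Ct of the hyperoxia samples for all 6 first-card members, as it did for 69.2% of first-card assays.

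**Figure D3:**
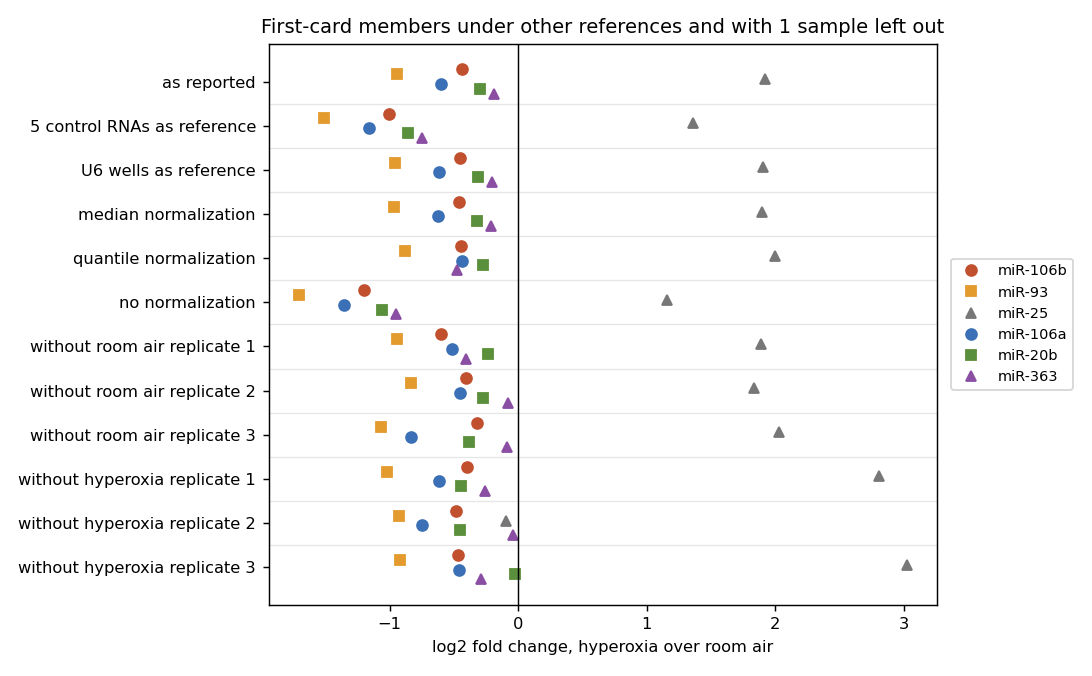
Log2 fold change of hyperoxia over room air for the 6 first-card members (colours and shapes) under other references and with 1 sample left out (lines of the vertical axis). miR-93 stays leftmost throughout, and miR-25 moves from 1.92 to -0.098 when hyperoxia replicate 2 is left out. Apart from quantile normalization, a change of reference shifts all 6 members alike and cannot change their order.

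Comparing members of 1 cluster within a sample needs no reference, since both assays share the card. There were 6 such pairs with both assays detected. The Ct of miR-93 minus that of miR-106b was 0.60, 0.78 and 1.41 in room air, against 1.21, 1.56 and 1.54 in hyperoxia. The groups overlapped at room air replicate 3, and the mean was 0.93 ± 0.42 in room air, against 1.43 ± 0.20 in hyperoxia (SD, n = 3; exact permutation p = 0.2, adjusted p = 0.3 over the 6 pairs), which did not pass. Only miR-25 minus miR-93 had separate groups, at 1.80, 2.14 and 1.29 in room air, against 0.80, -5.20 and 1.04 in hyperoxia (exact permutation p = 0.1, adjusted p = 0.3). Without hyperoxia replicate 2 this pair still differed by -0.83 cycles between groups, with an exact permutation p of 0.2.

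In the X chromosome cluster, miR-20b minus miR-106a was 3.35 ± 0.29 cycles in room air, against 3.05 ± 0.27 in hyperoxia (SD, n = 3; exact permutation p = 0.2, adjusted p = 0.3). miR-363 minus miR-106a was 12.51 ± 0.64 and 12.10 ± 0.55 (exact permutation p = 0.5, adjusted p = 0.6). With 1 sample left out, the difference between groups ran from -0.45 to -0.17 cycles for miR-20b minus miR-106a (-0.17 without hyperoxia replicate 1 or room air replicate 2) and from -0.75 without room air replicate 3 to -0.11 without room air replicate 1 for miR-363 minus miR-106a. With 3 samples per group no pair could reach an exact p under 0.1.

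The minor strands are cut from the other side of the same hairpins. Apart from the undetected rno-miR-20b-3p of the first card, they were read on the second card. Names and assay numbers are offset by 3 wells there, so single identities are uncertain. hsa-miR-93# had Ct values of 20.01 and 20.15 in room air replicates 2 and 3 and 20.58 and 21.06 in hyperoxia replicates 1 and 3. Its log2 fold change was -0.56 ± 0.36 (limma adjusted p = 0.689), and 0.11 with the first-card mean as reference. hsa-miR-106b# was at -0.15 ± 0.57 (limma adjusted p = 0.942), with overlapping groups.

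rno-miR-25#, of uncertain identity like the other second-card assays, had the lowest value of the 3 minor strands tested. Its Ct was 25.61 and 24.72 in room air, against 27.69 and 28.15 in hyperoxia, a log2 fold change of -2.57 ± 0.45 (95% interval -3.88 to -1.26; limma adjusted p = 0.333). It did not pass. These values leave out hyperoxia replicate 2, the sample on which the guide strand miR-25 value of 1.92 rests; without that sample miR-25 was at -0.098. Keeping the identical values as room air data gave -1.63. hsa-miR-363# was detected in room air replicate 2 alone (Ct 24.74), and mmu-miR-20b# in room air replicate 3 (32.48) and hyperoxia replicate 1 (34.18).

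The miR-17 to miR-92a cluster, fixed as the list of related genes, was read by 6 first-card assays. All 6 had values below 0, where 58.9% of first-card assays did, with a median of -0.47, and 0 passed in limma over all assays. They ran from -0.53 for miR-19a and miR-19b to -0.19 ± 0.30 for miR-20a (limma adjusted p = 0.867). miR-17 was at -0.50 ± 0.30 and miR-92a at -0.43 ± 0.32 (limma adjusted p = 0.689 each), and miR-18a at -0.33 ± 0.33 (limma adjusted p = 0.772). Hyperoxia replicate 3 weighed on these values: without it the median was -0.25, with miR-20a at 0.028, miR-18a at -0.10, miR-92a at -0.19 and miR-17 at -0.32. Without hyperoxia replicate 2 miR-18a was at -0.53, and without hyperoxia replicate 1 miR-20a was at -0.35. Of these 6, 2 (miR-19a and miR-92a) had groups that did not overlap on the relative scale, both lower, against 16.2% of first-card assays.

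**Figure D4:**
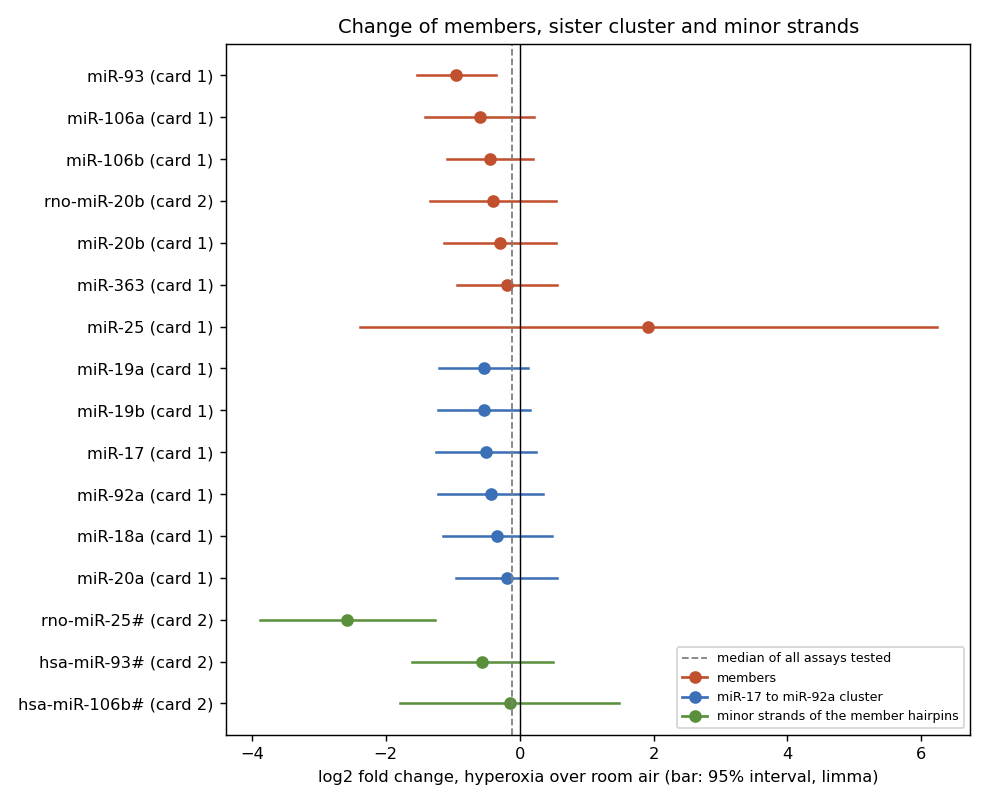
Log2 fold change of hyperoxia over room air (points) with its 95% interval from limma (bars) for the members, the miR-17 to miR-92a cluster and the minor strands, in colours; the solid line is 0 and the dashed line the median of all assays tested, -0.12. Intervals of miR-93 and rno-miR-25# lie below 0, and all others include it. Neither passed after adjustment, and the identity of rno-miR-25#, as of other second-card assays, is uncertain.

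Beyond both lists, 2 first-card assays share the seed of miR-25 and miR-363. miR-32 had Ct values of 24.38, 25.19 and 25.77 in room air, against 28.88, 25.64 and 26.21 in hyperoxia, at -1.03 ± 0.75 (limma adjusted p = 0.689). miR-367, known from pluripotent stem cells, was read at 15.73 to 17.11 over the 6 samples and at 0.053 ± 0.25 (limma adjusted p = 0.948). That is about as early as miR-92a, read at 16.1 to 18.3. Whether the miR-367 well reads that miRNA was not tested.

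Likeness was measured as the root mean square difference in log2 abundance over the 6 samples, each profile centred on its own mean. Closest to the median profile of the 6 first-card members were miR-434-3p (0.15), miR-380-5p (0.16) and miR-92a (0.16), where the median over 276 assays was 0.51. Closest to miR-93 were miR-150 (0.11), the smooth muscle miR-145 (0.20) and miR-191 (0.21), with a median of 0.59. miR-150, a miRNA of mature lymphocytes, stood at 6.14, 6.42 and 5.81 in room air, against 5.28, 4.90 and 4.92 in hyperoxia. Of these 6, 0 passed in limma over all assays; miR-150 was at -1.09 ± 0.27 (adjusted p = 0.333).

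Since miR-150 and miR-145 are also markers of other cells, all marker lists are given here. Summed levels are the log2 of levels added over the first-card assays detected in every sample. Of 6 leukocyte assays, 4 were above 0 and 2 below, and the summed level ranged from 6.53 to 6.91 in room air and from 6.07 to 7.12 in hyperoxia. Of 7 mesenchymal and smooth muscle assays, 4 were above 0 and 3 below, with a summed level of 8.38 to 8.62 in room air, against 7.98 to 8.37. The mesenchymal sums, over 4 assays, did not overlap between groups, by a narrow margin, and the leukocyte sums did. In the mesenchymal sum the most abundant assay, miR-145 (mean log2 abundance 8.06 in room air), weighs most. The mean log2 abundance of the same 4 assays did overlap, at 5.47 to 5.93 in room air, against 5.315 to 5.998 in hyperoxia.

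Both endothelial assays were below 0, at a summed level of 10.12 to 11.22 in room air, against 10.10 to 10.29 in hyperoxia. Of 9 epithelial assays 6 were below 0, with a median of -0.12, that of all assays, and a summed level of 7.41 to 7.57 in room air, against 6.84 to 7.603. Of 6 striated muscle assays, 5 were below 0, with a median of -0.39, close to the members' own, and a summed level of 3.49 to 4.54 in room air, against 2.32 to 3.54. Of 3 erythroid assays 2 were above 0, and miR-451 and miR-486 together ran from 1.17 to 3.35 in room air and from 1.39 to 4.11 in hyperoxia. Both neural assays tested were above 0, the liver miRNA miR-122 was at -0.69, and of 7 embryonic stem cell assays tested 4 were below 0. The embryonic summed level, over 5 assays, ran from -4.2 to 4.4 in room air and from 2.0 to 5.1 in hyperoxia. Of the assays above 0 in that list, miR-302a was at 9.10 ± 3.28 and miR-302d at 6.28 ± 3.64. Their wells scattered widely, with miR-302a at a Ct of 22.74 to 34.94 in room air. In each of these lists 0 assays passed in limma. The part of these cells in the members' values was not tested.

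The authors' deposited table gives folds of hyperoxia over room air relative to U6 in row A, with a Ct of 40 counted as a value. It lists 0.414 for miR-93, 0.526 for miR-106a, 0.588 for miR-106b, 0.649 for miR-20b, 0.700 for miR-363 and 3.02 for miR-25. In the authors' deposited table miR-18b and rno-miR-20b-3p carry a fold of 1.35 although every well had a Ct of 40, which is the shift of the U6 reference alone.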

How the data were processed

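The authors deposited 1 table of 768 wells with a Ct per sample, read as 2 cards of 384 wells; per the labels' protocols RNA was reverse transcribed with Megaplex primers and pre-amplified for 12 cycles. Instrument and software are not given in the sources used here. The authors also deposited a fold between groups, a ratio formed as 2 to the power of the difference in mean Ct relative to U6. From the Ct values, a Ct of 35 or more was set missing and each sample was centred, card by card, on its mean Ct over miRNAs detected throughout (282 and 249 assays), giving a log2 relative abundance. Assays detected in at least 2 samples of each group were tested with limma 3.58.1 in R 4.3.3 (lmFit, eBayes, two-sided, Benjamini-Hochberg over 551 assays, threshold 0.05; prior degrees of freedom 1.62). The limma script was tested on simulated data. Exact permutation tests are two-sided. Second-card values of room air 1 and hyperoxia 2 were left out as identical. Names are those of miRBase 14 in the file. Named were every member, every tested minor strand of its hairpin, every miR-17 to miR-92a assay, and the 3 assays nearest the members' median profile and nearest miR-93; miR-32 and miR-367 were added for a shared seed. Members, lists and tests were chosen with earlier results of these data known.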

Additional observations from a re-analysis of the deposited data

How the results depend on the processing

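The number of samples, 3 per group and 2 where the second card is concerned, limits precision. Over 26 alternatives, 0 members passed in limma, and the first-card mouse assays of miR-93, miR-106b, miR-106a, miR-20b and miR-363 kept a negative value wherever they were tested, unlike rno-miR-20b. For these first-card assays part of the alternatives could not change the sign, since they alter only the second card or the variances. Over all assays, 1 passed with a Ct ceiling of 32 or 28, with a Ct of 40 as a value, on the first card alone, without row G and with a variance trend; with 1 sample left out the count ran from 0 to 4, reaching 4 without hyperoxia replicate 1 (miR-322, miR-17#, miR-138# and miR-193#). The members' median was -1.06 with no normalization. The miR-17 to miR-92a median was -1.23 with no normalization, -1.03 against the control RNAs and -0.84 with a Ct of 40 as a value.

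Values that changed sign were few. With 1 sample left out, miR-25 ran from -0.098 to 3.02, miR-20a from -0.35 to 0.028, hsa-miR-106b# from -0.83 to 0.35 and the Ct of miR-363 minus that of miR-20b from -0.41 to 0.27 cycles. The count of pairs with separate groups ran from 1 to 3. With the first-card mean for both cards, rno-miR-20b was at 0.26, hsa-miR-93# at 0.11 and hsa-miR-106b# at 0.51; hsa-miR-106b# was at 0.23 with median normalization. Names moved to the well of their assay number, an alternative chosen after seeing the data, put rno-miR-20b at 0.54. For each of these the cause was not tested.

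The labels number the replicates of both groups 1 to 3 without saying that numbers pair samples. Deviations of same-numbered samples correlated by -0.336, -0.234 and -0.176 over 282 assays, and no sample correlated best with its own number. With the replicate number as a block, on the first card, 0 of 301 assays passed, miR-93 was at -0.95 ± 0.29 (limma adjusted p = 0.491) and the members' median was -0.37.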
